A study of Mus musculus with 6 samples.

Results

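Imprinted genes that take part in growth control were followed across 3 cell populations of mouse skeletal muscle. The members are Meg3, Rian, H19, Peg3, Plagl1, Ndn, Cdkn1c, Grb10, Dlk1 and Mest, chosen by gene symbol, and each was read from its brightest probe by mean over the 6 arrays of the deposited value table. They are 10 of the 19321 genes named on the array, and all 10 were among the 18372 genes tested. The cells were PDGFRa+ mesenchymal progenitors, satellite cells, and a mixed population that carried CD31 or CD45 and so held endothelial or hematopoietic cells, written CD31_CD45 here. They were sorted by flow cytometry from hind limb muscles of C57BL/6 mice, either young (8 to 10 weeks) or aged (24 to 28 months). Cells of repeated sorts were pooled until enough had been collected, and each population at each age was hybridised to 1 array. There are therefore no replicates within a population and age, and the number of arrays limits the precision of every value. The labels name no genetic change, treatment or sex in any group. The series asks which genes mark each population and which differ with age.

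Imprinted genes are expressed mainly from the allele of 1 parent, a choice that is kept by DNA methylation at a control region in each cluster. Genes expressed from the paternal allele tend to favour growth of the embryo and genes expressed from the maternal allele tend to restrain it, and many of them are abundant before birth and decline after it. Meg3, Rian and H19 are maternally expressed long noncoding RNAs, and Meg3 and Rian lie with the paternally expressed Dlk1 in the Dlk1-Dio3 cluster. Peg3 and Plagl1 encode zinc finger transcription factors, and Plagl1 has been described as a regulator of other imprinted genes. Peg3, also known as Pw1, has been used to mark several kinds of adult progenitor cell, satellite cells among them.

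The sequences at the start of 4 genes are shown because these were the members found highest in a single population: Meg3, Rian and Peg3 in satellite cells, and Ndn in PDGFRa+ cells. Each window holds 250 bases before and 50 after the start of the gene, read 5′ to 3′ on the strand of the gene from RefSeq on mouse build GRCm38.p6. The windows are chr12:109540746-109541045 (Meg3, plus strand), chr12:109603695-109603994 (Rian, plus strand), chr7:6730370-6730669 (Peg3, minus strand) and chr7:62348027-62348326 (Ndn, plus strand). Capitals mark CG dinucleotides, the sites at which imprints are methylated.
Meg3: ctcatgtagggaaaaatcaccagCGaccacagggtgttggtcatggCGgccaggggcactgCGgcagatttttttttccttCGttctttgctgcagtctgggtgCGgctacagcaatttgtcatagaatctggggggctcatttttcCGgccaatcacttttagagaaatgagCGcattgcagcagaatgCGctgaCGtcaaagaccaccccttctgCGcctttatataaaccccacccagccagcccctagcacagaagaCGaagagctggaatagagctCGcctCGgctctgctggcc
Rian: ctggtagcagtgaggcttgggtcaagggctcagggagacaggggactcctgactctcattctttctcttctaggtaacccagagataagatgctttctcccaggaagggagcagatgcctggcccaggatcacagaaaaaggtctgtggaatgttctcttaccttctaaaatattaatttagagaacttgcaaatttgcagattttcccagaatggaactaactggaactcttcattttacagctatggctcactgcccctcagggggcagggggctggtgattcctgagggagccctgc
Peg3: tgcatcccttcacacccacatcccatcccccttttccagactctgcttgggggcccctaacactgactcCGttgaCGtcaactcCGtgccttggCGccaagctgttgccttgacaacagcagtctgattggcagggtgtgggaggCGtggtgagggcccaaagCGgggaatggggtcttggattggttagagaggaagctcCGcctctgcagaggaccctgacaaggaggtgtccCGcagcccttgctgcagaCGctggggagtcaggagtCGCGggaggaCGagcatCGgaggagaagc
Ndn: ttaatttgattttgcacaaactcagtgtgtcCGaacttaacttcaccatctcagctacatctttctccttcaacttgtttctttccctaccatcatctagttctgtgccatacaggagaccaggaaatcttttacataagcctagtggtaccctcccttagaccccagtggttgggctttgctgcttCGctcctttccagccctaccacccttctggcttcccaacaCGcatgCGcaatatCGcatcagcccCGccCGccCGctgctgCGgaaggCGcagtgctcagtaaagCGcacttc
The Meg3 window holds 13 CG dinucleotides, the Rian window 0, the Peg3 window 13 and the Ndn window 11. The median over all 32851 promoter windows of the same length was 7. Rian thus starts in a stretch without the dinucleotide, while Meg3, Peg3 and Ndn each have more of them than the median window.

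Of the 10 members, 8 had a window in the RefSeq table; H19 and Cdkn1c are named only. Meg3 has a second start with 1 CG dinucleotide. The Plagl1 window holds 26 in a sequence of 70.7% G or C, against a median of 52.67% over all windows, and the first of 2 Grb10 windows holds 45 in 80% G or C. The palindrome GGGGCCCC, described as a site of the Plagl1 protein and the same on both strands, occurs once among the members' windows, in that of Peg3, and in 1.08% of all windows. The E-box CAGCTG, a sequence of the kind bound by myogenic factors and also a palindrome, occurs once, in a window of Mest, and in 16.3% of all windows. These are matches of letters and no measurement of binding or methylation was made.

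Levels are given in the intensity units of the table the authors deposited, in which the median of every array is 25, and a level of 1 gene is not set against that of another because probes differ. Differences are log2 values computed from the scanner files after an offset of 50 was added, so they understate differences of dim genes. A gene was called between populations where limma's adjusted p was under 0.05 and the difference at least 2-fold. The error of this test comes from how far the 3 pairs of arrays depart from a common age difference, since no population was measured again at the same age.

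Between 88.4% and 92.3% of the 23473 probes were above background on each array, and all 10 members were above background on 6 of 6 arrays. Pdgfra read 5700.4 (young) and 4149.0 (aged) in PDGFRa+ cells and at most 60.6 elsewhere. Pax7, the defining marker of satellite cells, read 1055.0 (young) and 1361.6 (aged) in satellite cells and was below background in both PDGFRa+ arrays. The summed intensity of 8 satellite cell markers was 738.0 (young) and 495.2 (aged) in PDGFRa+ cells, against 21631.5 and 15765.1 in satellite cells. The sum of 9 mesenchymal markers was 5689.6 (young) and 6872.2 (aged) in satellite cells, against 65869.0 and 59614.4 in PDGFRa+ cells. Of the satellite sums, Dpt made up 3708.0 (young) and 4255.3 (aged) and Cd34 1564.0 and 1242.8, while Pdgfra read 7.6 and 60.6. The 6 myofibre markers summed to 2452.6 (young) and 4329.1 (aged) in satellite cells. In PDGFRa+ cells they summed to 359.9 and 158.4, and in CD31_CD45 cells to 807.2 and 601.3. Some genes of other cell types were thus brighter in the aged satellite array than in the young one, and these values stand beside the results they touch. The part of myofibre RNA in the higher satellite values of Meg3, Rian and Peg3 was not tested. The 6 pericyte and smooth muscle markers had their highest sum in CD31_CD45 cells, at 9357.9 (young) and 11397.2 (aged). Of this, Acta2 made up 6787.9 and 9442.2. In PDGFRa+ cells the sum was 576.9 and 884.5. The part of such cells in the CD31_CD45 values of the genes below was not tested. In sorted pools, fewer cells that express a gene and less RNA of it per cell cannot be told apart.

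The 10 genes did not share 1 pattern. Of them, 3 (Meg3, Rian and Peg3) were highest in satellite cells, Ndn was highest in PDGFRa+ cells, and Plagl1, H19 and Mest were high in both and low in CD31_CD45 cells. Cdkn1c ran the other way, with its highest values in CD31_CD45 cells. Dlk1 and Grb10 read below the array median on all 6 arrays.

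**Figure D1:**
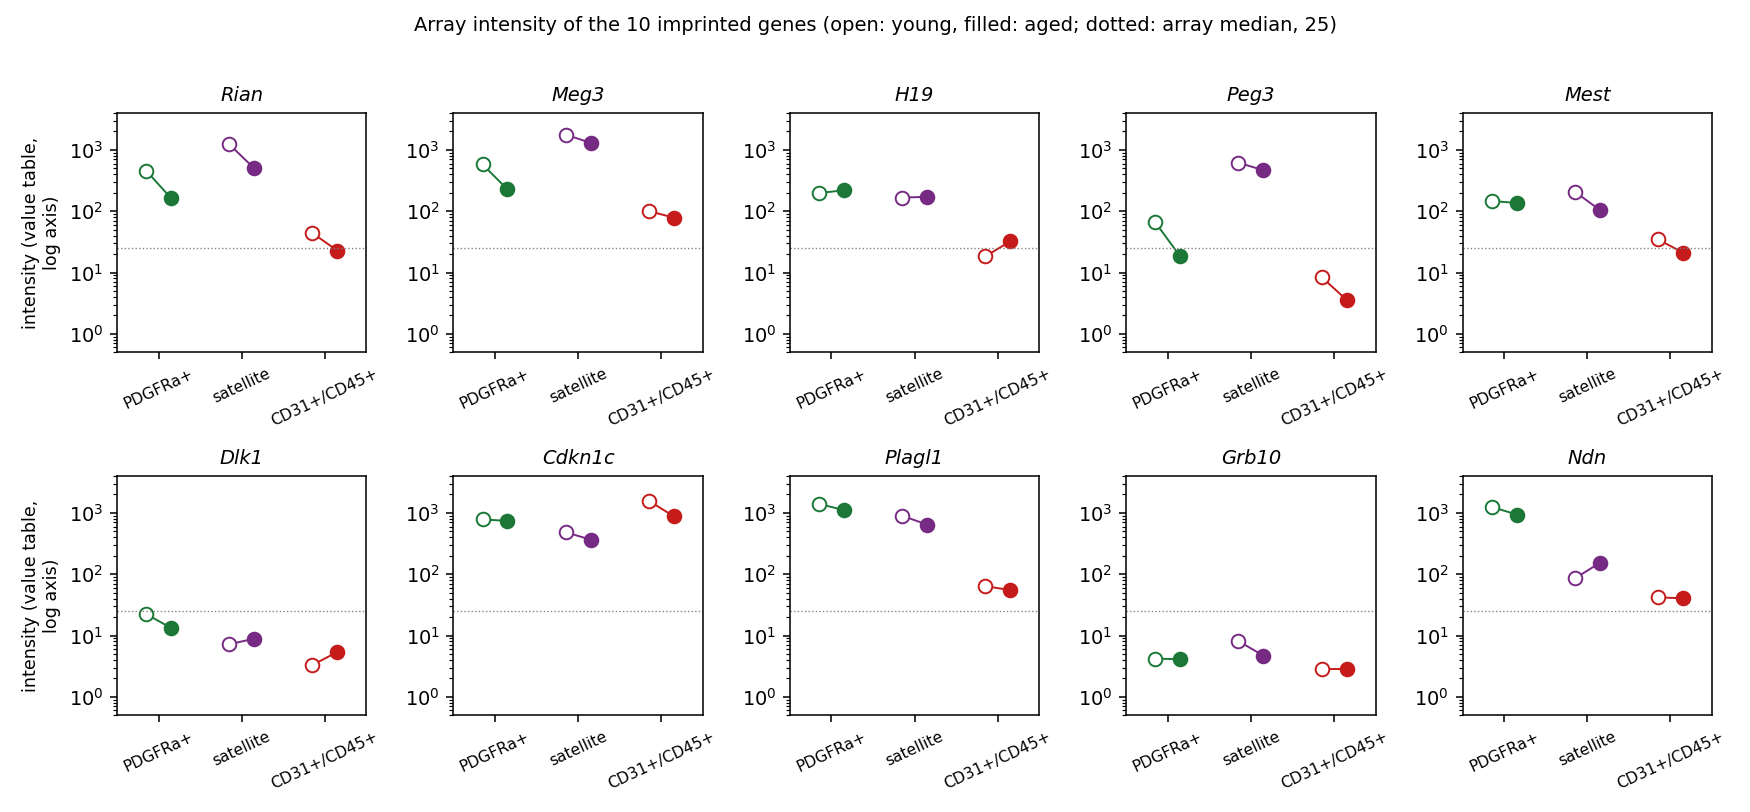
Intensity (log axis, units of the deposited table) of each of the 10 genes on the 6 arrays; colours stand for the cell population, open circles for young and filled circles for aged, and the dotted line for the array median of 25. Meg3, Rian and Peg3 peak in satellite cells, Ndn in PDGFRa+ cells and Cdkn1c in CD31_CD45 cells, and the lines of Rian, Meg3 and Peg3 slope down from young to aged in all 3 populations.

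The long noncoding RNAs of the Dlk1-Dio3 cluster were strongest in satellite cells. Meg3, which also hosts a microRNA, read 1777.8 (young) and 1304.8 (aged) in satellite cells, 580.4 (young) and 227.4 (aged) in PDGFRa+ cells, and 100.6 and 78.6 in CD31_CD45 cells. The 3 populations did not overlap. Satellite cells exceeded CD31_CD45 cells by 3.70 (log2, SE 0.25, adjusted p = 0.00427) and PDGFRa+ cells exceeded CD31_CD45 cells by 1.67 (SE 0.25, adjusted p = 0.0220). The difference of PDGFRa+ minus satellite cells was -2.02 (SE 0.25, adjusted p = 0.0190), a 4.07-fold lower value in PDGFRa+ cells.

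Rian, the host transcript of a large group of small nucleolar RNAs and microRNAs, followed the same order. It read 1239.7 (young) and 500.0 (aged) in satellite cells, 459.6 (young) and 162.9 (aged) in PDGFRa+ cells, and 44.0 and 22.8 in CD31_CD45 cells. The aged satellite array lay close to the young PDGFRa+ array, and the CD31_CD45 arrays lay far below all others. The difference of satellite minus CD31_CD45 cells was 3.67 (SE 0.21, adjusted p = 0.00334), that of PDGFRa+ minus CD31_CD45 cells 2.20 (SE 0.21, adjusted p = 0.00909), and that of PDGFRa+ minus satellite cells -1.47 (SE 0.21, adjusted p = 0.0249).

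H19, a maternally expressed RNA that hosts a microRNA and lies beside Igf2, separated CD31_CD45 cells from the rest. It read 198.0 (young) and 219.5 (aged) in PDGFRa+ cells, 166.2 (young) and 172.5 (aged) in satellite cells, and 18.3 and 32.2 in CD31_CD45 cells. PDGFRa+ cells exceeded CD31_CD45 cells by 2.02 (SE 0.06, adjusted p = 0.00155) and satellite cells did so by 1.83 (SE 0.06, adjusted p = 0.00160). PDGFRa+ and satellite cells differed by 0.19 (SE 0.06, adjusted p = 0.123), which was not called. A second, dimmer H19 probe read 12.0, 10.9 and 3.3 in young PDGFRa+, satellite and CD31_CD45 cells and 10.6, 10.0 and 2.5 in the aged ones, again lowest in CD31_CD45 cells.

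Of the transcription factors, Peg3 marked satellite cells and Plagl1 marked PDGFRa+ and satellite cells together. Peg3 read 619.6 (young) and 465.7 (aged) in satellite cells, 65.6 (young) and 18.3 (aged) in PDGFRa+ cells, and 8.4 and 3.6 in CD31_CD45 cells. Its difference of satellite minus CD31_CD45 cells was the widest of any member, 3.86 (SE 0.19, 14.5-fold, adjusted p = 0.00253), and its difference of PDGFRa+ minus satellite cells was -3.01 (SE 0.19, 8.05-fold lower, adjusted p = 0.00792). The difference of PDGFRa+ minus CD31_CD45 cells, 0.85 (SE 0.19, adjusted p = 0.0518), missed both criteria, but was called at 1.69 with an offset of 10 and at 2.45 with the deposited table.

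Plagl1, whose protein can halt the cell cycle, read 1408.2 (young) and 1112.4 (aged) in PDGFRa+ cells, 899.8 (young) and 647.1 (aged) in satellite cells, and 64.0 and 55.2 in CD31_CD45 cells. The lowest of the first 4 values was still far above both CD31_CD45 arrays. The difference of PDGFRa+ minus CD31_CD45 cells was 3.71 (SE 0.07, 13.1-fold, adjusted p = 0.000871) and that of satellite minus CD31_CD45 cells 3.14 (SE 0.07, 8.82-fold, adjusted p = 0.000944). PDGFRa+ cells stood 0.57 above satellite cells (SE 0.07, adjusted p = 0.0193), which passed the test but not the 2-fold limit.

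Among the genes that restrain growth, Ndn and Cdkn1c had opposite extremes. Ndn encodes necdin, a protein of the MAGE family that holds back cell division in neurons and other cells. It read 1258.1 (young) and 940.2 (aged) in PDGFRa+ cells, 85.4 (young) and 153.5 (aged) in satellite cells, and 41.9 and 40.6 in CD31_CD45 cells. PDGFRa+ cells exceeded satellite cells by 2.78 (SE 0.28, 6.85-fold, adjusted p = 0.0141) and CD31_CD45 cells by 3.80 (SE 0.28, 14.0-fold, adjusted p = 0.00565). Satellite minus CD31_CD45 cells stood at 1.03 (SE 0.28, adjusted p = 0.0698), which was not called here and was called at 1.37 with an offset of 10, 1.29 with no background correction and 1.45 with the deposited table.

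Cdkn1c encodes p57, a maternally expressed inhibitor of cyclin-dependent kinases. It read 1578.1 (young) and 883.8 (aged) in CD31_CD45 cells, 783.3 (young) and 743.6 (aged) in PDGFRa+ cells, and 486.0 and 366.5 in satellite cells. All 3 populations were bright and none overlapped another, yet only satellite minus CD31_CD45 cells was called, at -1.42 (SE 0.22, 2.67-fold lower, adjusted p = 0.0197). PDGFRa+ cells lay between, at 0.70 (SE 0.22, adjusted p = 0.109) against satellite cells and -0.71 (SE 0.22, adjusted p = 0.0989) against CD31_CD45 cells.

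Grb10, an adaptor that binds the insulin and IGF1 receptors and dampens their signal, read 4.2 (young) and 4.1 (aged) in PDGFRa+ cells, 8.1 and 4.7 in satellite cells, and 2.9 and 2.9 in CD31_CD45 cells. These values are low in every population. Its differences between populations were at most 0.13 on the log2 scale, and none was called. Dlk1, a transmembrane relative of the Notch ligands, read 22.4 (young) and 13.3 (aged) in PDGFRa+ cells, 7.2 (young) and 8.9 (aged) in satellite cells, and 3.3 and 5.4 in CD31_CD45 cells. The PDGFRa+ arrays were the brighter ones. Their difference from CD31_CD45 cells was 0.44 (SE 0.09, adjusted p = 0.0409), under 2-fold, and was called at 1.07 with an offset of 10 and at 1.80 with the deposited table. Against satellite cells it was 0.31 (SE 0.09, adjusted p = 0.0915).

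Mest, a paternally expressed gene for an enzyme of the alpha/beta hydrolase fold, resembled H19. It read 146.6 (young) and 136.6 (aged) in PDGFRa+ cells, 208.4 (young) and 104.7 (aged) in satellite cells, and 34.6 and 21.2 in CD31_CD45 cells. PDGFRa+ cells exceeded CD31_CD45 cells by 1.50 (SE 0.22, adjusted p = 0.0216) and satellite cells did so by 1.59 (SE 0.22, adjusted p = 0.0162). The satellite arrays lay on either side of both PDGFRa+ arrays, and PDGFRa+ minus satellite cells was -0.09 (SE 0.22, adjusted p = 0.847).

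**Figure D2:**
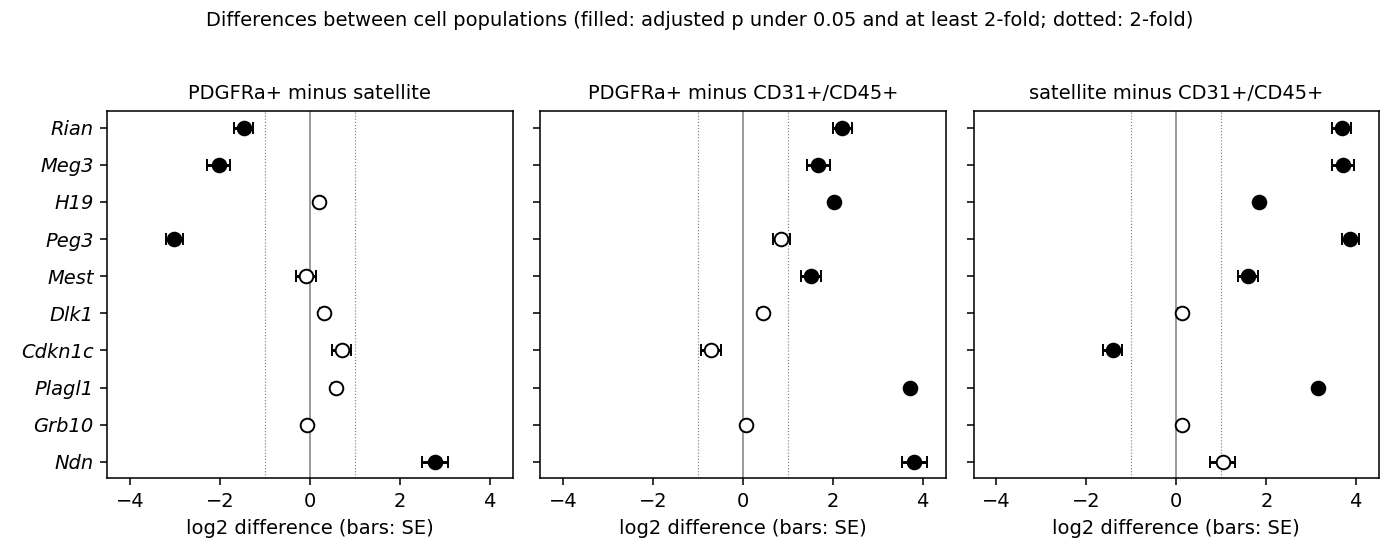
Log2 difference of each of the 10 genes between cell populations (x axis) with its limma standard error; filled points passed adjusted p under 0.05 and 2-fold, and dotted lines mark 2-fold. Most filled points lie to the right against CD31_CD45 cells, with Cdkn1c at -1.42 on the left, while PDGFRa+ minus satellite cells has Meg3, Rian and Peg3 on the left and Ndn on the right.

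Counted together, 6 of the 10 members were called higher in satellite than in CD31_CD45 cells and 1 lower, where 5.12% of all tested genes were called higher and 6.57% lower. In the same way 6 of 10 were called higher in PDGFRa+ than in CD31_CD45 cells and 0 lower, against 4.70% and 5.40% of all genes. Between PDGFRa+ and satellite cells 1 member was called higher and 3 lower, against 4.09% and 3.20%. Satellite cells were called higher than each other population for 3 members (Meg3, Peg3 and Rian) and for 2.13% of tested genes. PDGFRa+ cells were so for 1 member, Ndn, and for 2.43% of tested genes. The median member difference was 1.71 for satellite minus CD31_CD45 cells, 1.59 for PDGFRa+ minus CD31_CD45 cells and 0.06 for PDGFRa+ minus satellite cells. The medians of all genes were 0.02, 0.01 and -0.01. The members were chosen with earlier results of these data known, so these counts describe the list and do not test it. The shares and medians of all genes also take in dim genes, whose differences the offset understates.

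The calls rest unequally on single arrays. Meg3, Rian, H19, Peg3 and Plagl1 in satellite against CD31_CD45 cells, and H19, Plagl1 and Ndn in PDGFRa+ against CD31_CD45 cells, were called whichever of the 6 arrays was left out. Without the young PDGFRa+ array, or without the aged one, no gene was called between PDGFRa+ and satellite cells, so the loss is not particular to the members. The differences kept their direction: Peg3 stood at -3.31 and -2.71, Ndn at 2.47 and 3.09, Meg3 at -2.42 and -1.62 and Rian at -1.64 and -1.29. When either satellite array was left out the Meg3 and Rian calls were lost and those of Peg3 and Ndn stayed. Against CD31_CD45 cells, the PDGFRa+ call of Rian was lost when either PDGFRa+ array was left out, that of Meg3 when either CD31_CD45 array was, and that of Mest when any 1 of these 4 was. The satellite call of Mest was lost when either CD31_CD45 array was left out, and that of Cdkn1c when either satellite array or the young CD31_CD45 array was. With the local background of each spot in place of the blank spots, Plagl1 against CD31_CD45 cells was the 1 member called, for PDGFRa+ and for satellite cells. With population as the only term, Rian was not called for PDGFRa+ cells against satellite (adjusted p = 0.157) or CD31_CD45 cells (adjusted p = 0.0568).

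The file headers hold a gain value for each array, and the arrays were split here into 2 sets of 3 by it. The first holds young PDGFRa+ (0.465), young satellite (0.466) and aged PDGFRa+ (0.466). The second holds both CD31_CD45 arrays (0.478 each) and aged satellite (0.477). Within the first, young PDGFRa+ minus young satellite cells was -1.64 for Meg3, -1.46 for Rian, -2.74 for Peg3 and 3.28 for Ndn. Within the second, aged satellite minus aged CD31_CD45 cells was 3.66 for Meg3, 3.33 for Rian, 3.80 for Peg3, 1.73 for H19, 1.37 for Mest, 3.03 for Plagl1 and -1.19 for Cdkn1c. These are differences of 1 array against 1 and have the signs and much of the size of the pooled values. The same arrays enter the pooled values, so this likeness is partly built in and is no independent check. With the gain set as a block, Peg3 and Ndn were called between PDGFRa+ and satellite cells and Meg3 and Rian were not, and H19, Plagl1 and Ndn were the 3 members called between PDGFRa+ and CD31_CD45 cells. The Cdkn1c call in satellite minus CD31_CD45 cells was lost too (-1.40). Only the satellite pair spans the 2 sets. For PDGFRa+ minus satellite cells the block gave the values found without the aged satellite array (Meg3 -1.85, Rian -1.64). For satellite minus CD31_CD45 cells it gave those found without the young one (Cdkn1c -1.40). In these 2 comparisons the block is thus no check of gain separate from leaving out an array. Both PDGFRa+ arrays lie in the first gain set and both CD31_CD45 arrays in the second, so that comparison has no value within a set.

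With age, no member passed the test. The age difference common to the 3 populations (aged minus young, 3 arrays against 3) was called by limma for 0 of 18372 genes (0%) and 0 of 10 members. At an unadjusted p under 0.05 there were 2026 genes, 11.0% of those tested, and 3 members: Rian, H19 and Plagl1. The members' median was -0.29, against -0.01 for all genes, and 8 of 10 lay below 0.

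Rian had the lowest common value of the members, -0.93 (SE 0.17, limma adjusted p = 0.334), the 7th lowest of 18372. Its intensity was 2.82-fold lower in aged than in young PDGFRa+ cells (162.9 against 459.6), 2.48-fold lower in aged than in young satellite cells (500.0 against 1239.7) and 1.93-fold lower in aged than in young CD31_CD45 cells (22.8 against 44.0), as ratios of the deposited intensities. On the offset log2 scale these were -1.17, -1.15 and -0.48, which placed Rian 14th lowest of 17876 genes in PDGFRa+ cells, 10th lowest of 18024 in satellite cells and 264th lowest of 18090 in CD31_CD45 cells. The direction was the same in all 3 pairs, and each pair is 1 aged array against 1 young array with no test.

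Meg3 had its widest age difference in PDGFRa+ cells, at -1.08 (227.4 against 580.4, a 2.55-fold lower intensity), the 21st lowest of 17876 genes. In satellite and CD31_CD45 cells it stood at -0.32 and -0.24. Its common value was -0.55 (SE 0.20, adjusted p = 0.478).

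Peg3 was lower in each aged array, at -0.84 in PDGFRa+ cells (18.3 against 65.6), -0.29 in satellite cells and -0.18 in CD31_CD45 cells. Its intensity in PDGFRa+ cells was 3.59-fold lower in aged cells, but on the offset scale it did not reach 2-fold. The value there was -1.34 with an offset of 10 and -1.79 with the deposited table, and in CD31_CD45 cells (3.6 against 8.4, 2.33-fold lower by intensity) it was -0.52 and -1.03. Whether Peg3 counts as 2-fold lower thus depends on how dim spots are treated. The common value was -0.44 (SE 0.16, adjusted p = 0.465).

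Beside these 3 genes, the summed satellite cell markers in PDGFRa+ cells were 738.0 in young and 495.2 in aged cells, of which Chodl made up 350.5 and 212.3. Pax7 was below background on both arrays. On the same pair the 8 hematopoietic markers summed to 223.2 and 2032.2, of which Lyz2 made up 110.1 and 1904.6 while Ptprc read 4.7 and 3.5, and the glial marker Sox10 read 35.1 and 173.8. The part of these markers in the differences of Rian, Meg3 and Peg3 was not tested. Both PDGFRa+ arrays lie in 1 gain set, as do both CD31_CD45 arrays, while the satellite arrays lie in different sets, and the part of this in the satellite value of Rian was not tested.

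**Figure D3:**
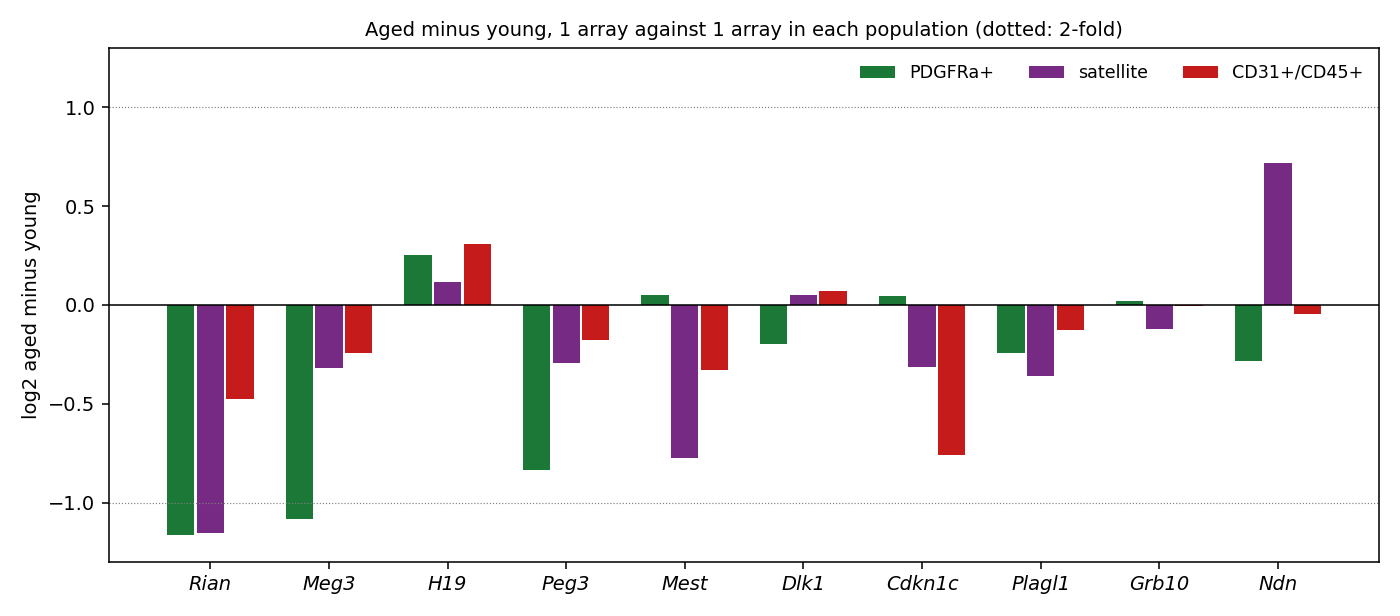
Log2 difference of aged minus young for each of the 10 genes (y axis), 1 bar per cell population, each from 1 aged and 1 young array and so without an error bar; dotted lines mark 2-fold. Rian passes 2-fold in PDGFRa+ (-1.17) and satellite cells (-1.15) and Meg3 in PDGFRa+ cells (-1.08), while H19 lies above 0 in all 3 populations.

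At least 2-fold lower values in aged cells were thus seen for 2 members in PDGFRa+ cells (Rian and Meg3), where 0.162% of genes had them, for 1 member in satellite cells (Rian; 0.0999% of genes) and for 0 members in CD31_CD45 cells (0.0663%). No member was at least 2-fold higher in any pair. These shares and the ranks above take in dim genes, which the offset keeps from reaching 2-fold more than it does Rian and Meg3. The members were also chosen with earlier results of these data known, so the shares are no test of them. With the local background of each spot, Rian stood at -0.51 in PDGFRa+ and 0.09 in CD31_CD45 cells and Meg3 at 2.73 in satellite cells, while Rian in satellite cells (-2.29) and Meg3 in PDGFRa+ cells (-1.97) stayed past 2-fold. With an offset of 10 or median scaling, the 2-fold differences of Rian and Meg3 given above lay between -1.28 and -1.11.

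H19 was the member with higher aged values in all 3 pairs, at 0.25 in PDGFRa+, 0.12 in satellite and 0.31 in CD31_CD45 cells, with a common value of 0.23 (SE 0.05, adjusted p = 0.371). Its second probe read lower in aged cells in each pair, so the probes disagree on this direction. Plagl1 was lower in each aged array, at -0.24, -0.36 and -0.13 in PDGFRa+, satellite and CD31_CD45 cells, with a common value of -0.24 (SE 0.06, adjusted p = 0.372). With the local background of each spot the 3 Plagl1 values turned, to 0.53, 0.41 and 0.12.

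For the other members no age difference was called, and their values by pair were as follows. Mest was 1.99-fold lower in aged than in young satellite cells by intensity (104.7 against 208.4) and stood at -0.77 on the log2 scale, the 67th lowest of 18024 genes, with 0.05 in PDGFRa+ and -0.33 in CD31_CD45 cells (21.2 against 34.6, 1.63-fold lower by intensity). Cdkn1c stood at -0.76 in CD31_CD45 cells (883.8 against 1578.1), the 38th lowest of 18090, with 0.04 in PDGFRa+ and -0.32 in satellite cells. With the local background of each spot the CD31_CD45 and satellite values of Cdkn1c turned, to 2.54 and 1.19, and its PDGFRa+ value rose to 2.78. Beside the CD31_CD45 value, the summed endothelial markers of the CD31_CD45 arrays were 16661.2 in young and 13017.8 in aged cells. The hematopoietic markers summed to 24063.3 and 28930.3 there, and the pericyte and smooth muscle markers to 9357.9 and 11397.2. The part of this mixture in the value was not tested. Dlk1 and Grb10 lay between -0.20 and 0.07 in every pair.

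Ndn lay on both sides of 0 across the pairs, at -0.28 in PDGFRa+, 0.72 in satellite and -0.04 in CD31_CD45 cells. In satellite cells its intensity was 85.4 in young and 153.5 in aged cells. On the same arrays the mesenchymal marker Mfap5 read 130.0 and 770.9 and Lum 43.8 and 224.6, and 8 of the 9 mesenchymal markers lay above 0 with 3 at least 2-fold higher. Tendon markers summed to 810.4 and 3071.4 there, and pericyte and smooth muscle markers to 3867.6 and 6529.6. Myofibre markers summed to 2452.6 and 4329.1, with 3 of 6 at least 2-fold higher. Hematopoietic markers summed to 215.2 and 1103.6, of which Lyz2 made up 147.3 and 965.3 while Ptprc read 2.3 and 4.6. The part of these cells in the satellite value of Ndn was not tested.

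The 3 noncoding RNAs of the Dlk1-Dio3 cluster had their highest values in satellite cells. In chromosomal order, Dlk1 is followed by Meg3, Rtl1, Rian, Mirg and Dio3. Mirg, the distal noncoding RNA, read 36.8 (young) and 15.3 (aged) in PDGFRa+ cells, 62.6 (young) and 37.5 (aged) in satellite cells, and 11.5 and 9.0 in CD31_CD45 cells. It had the same order of populations as Meg3 and Rian and lower values in each aged array, at -0.45, -0.41 and -0.09 in PDGFRa+, satellite and CD31_CD45 cells, but was not called between populations. The protein-coding Dio3, an enzyme that inactivates thyroid hormone, read between 8.1 and 20.6, highest in PDGFRa+ cells as Dlk1 was, and Rtl1, a gene derived from a retrotransposon, read at most 1.4. Of 4 tested genes of the cluster besides the members, 0 were called in any comparison. Of all genes, 7.29%, 10.1% and 11.7% were called between populations and 0% with age, so 0 of 4 says little about the cluster.

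**Figure D4:**
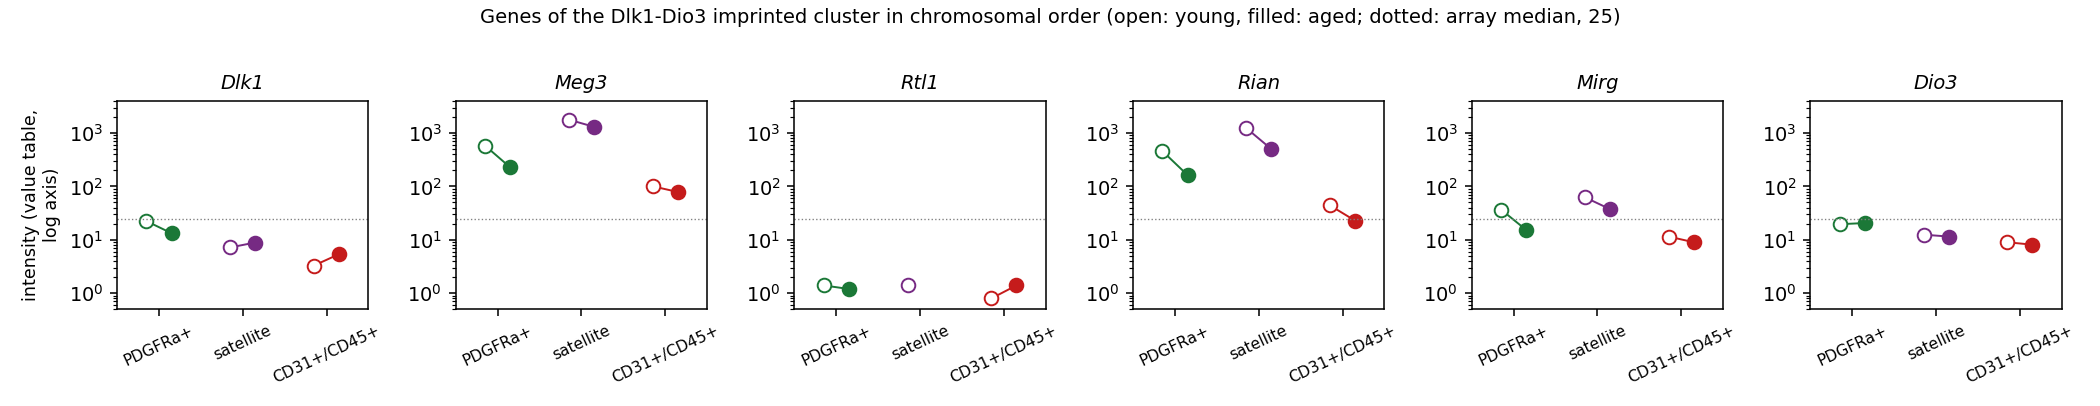
Intensity (log axis) of 6 genes of the Dlk1-Dio3 cluster, in chromosomal order, on the 6 arrays, with open circles for young, filled circles for aged and the array median of 25 dotted. Meg3, Rian and Mirg share 1 order of populations and slope down with age in each, whereas Dlk1 and Dio3 stay below the median and Rtl1, at no more than 1.4, lacks a point in aged satellite cells, where it was below background.

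Other genes listed as imprinted, or as neighbours of imprinted genes, were counted in the same way. No allele was measured, so whether any of these genes is imprinted in these cells was not tested. Of 65 listed neighbours and other imprinted genes, 56 were on the array and 55 were tested. Against satellite cells, PDGFRa+ cells had 5 called higher and 3 lower, where 4.09% and 3.20% of all genes were. Against CD31_CD45 cells they had 4 higher and 1 lower, beside 4.70% and 5.40%, and satellite cells had 3 higher and 2 lower, beside 5.12% and 6.57%. Nothing particular to the list is read from counts this small. The medians of the 55 genes were -0.02, 0.04 and 0.07, close to those of all genes. With age, 0 of the 55 were called, as were 0% of all genes.

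Nap1l5, a paternally expressed relative of the nucleosome assembly proteins, had the satellite pattern of Peg3. It read 225.7 (young) and 204.1 (aged) in satellite cells and no more than 8.6 in the other populations, and PDGFRa+ minus satellite cells was -2.62 (SE 0.05, adjusted p = 0.00392). Calcr, the calcitonin receptor and a marker of quiescent satellite cells, read 232.9 (young) and 98.3 (aged) in satellite cells and at most 6.4 elsewhere. The PDGFRa+ side held Sgce, which encodes epsilon-sarcoglycan, at 1.48 against satellite and 1.66 against CD31_CD45 cells, and Dcn, which encodes the matrix proteoglycan decorin, at 4.39 and 6.31.

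Igf2, the paternally expressed growth factor next to H19, had an order unlike that of H19. It read 1201.9 (young) and 1877.4 (aged) in CD31_CD45 cells, 601.1 (young) and 1278.1 (aged) in satellite cells, and 315.4 and 287.0 in PDGFRa+ cells. Its difference of PDGFRa+ minus CD31_CD45 cells was -2.27 (SE 0.31, adjusted p = 0.0180), where that of H19 was 2.02, and PDGFRa+ minus satellite cells was -1.53 (SE 0.31, adjusted p = 0.0463). In satellite cells Igf2 was 1.15 higher in the aged array, and it and Dcn (2.34) were the 2 of 54 neighbours at least 2-fold higher there, where 1.13% of all genes were. This is the array on which the mesenchymal markers Mfap5 and Lum and the tendon, pericyte and myofibre sums given with Ndn were higher. Dcn itself read 22414.0 in young PDGFRa+ cells. Igf2, in contrast, read less in young PDGFRa+ cells (315.4) than in young satellite cells (601.1), and more in young CD31_CD45 cells (1201.9). The part of such cells in either value was not tested. In PDGFRa+ and CD31_CD45 cells 0 neighbours were 2-fold different with age. Of all genes, 0.162% were 2-fold lower and 0.263% higher in PDGFRa+ cells, and 0.0663% and 0.514% in CD31_CD45 cells, so this count says little.

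Insulin and IGF signalling is the pathway that Grb10 dampens and Igf2 feeds. Of 21 tested genes, 3 were called higher and 2 lower in PDGFRa+ than in satellite cells, 6 higher and 1 lower in PDGFRa+ than in CD31_CD45 cells, and 3 higher and 2 lower in satellite than in CD31_CD45 cells. The shares of all genes were 4.09% and 3.20%, 4.70% and 5.40%, and 5.12% and 6.57%. The ligand Igf1 was higher in PDGFRa+ cells, by 3.13 against satellite and 2.61 against CD31_CD45 cells. The binding protein Igfbp6 was also higher there, by 4.73 and 5.66, and the adaptor Irs2 was highest in satellite cells, by 3.13 against CD31_CD45 cells with -1.74 for PDGFRa+ minus satellite cells. With age 0 of the 21 were called, as were 0% of all genes. Igfbp3 stood at -1.08 in PDGFRa+ cells, the 1 gene of the 21 at least 2-fold lower there, where 0.162% of all genes were. Igf2, Igfbp5 (1.28) and Igfbp7 (1.90) were at least 2-fold higher in aged satellite cells, where 1.13% of all genes were. The same markers of other cells stand beside these 3 values. Igfbp7 read 11172.5 in young PDGFRa+ and 16691.5 in young CD31_CD45 cells, while Igf2 read 315.4 and 1201.9 there. The part of such cells was not tested.

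Among 11 paralogues of the members, the Ndn relatives Maged1 and Maged2 were the genes called. Maged2 had the PDGFRa+ bias of Ndn, at 1.86 against satellite and 2.51 against CD31_CD45 cells, while Maged1 stood at 1.32 for PDGFRa+ and 1.68 for satellite cells against CD31_CD45 cells, as Plagl1 did with larger differences. The inhibitors Cdkn1a and Cdkn1b, relatives of Cdkn1c, were not called. Of 11 factors that set or keep imprints, the DNA methyltransferases, Uhrf1 and the Tet enzymes included, 0 were called between populations or with age. Of all genes, 7.29%, 10.1% and 11.7% were called between populations, so a count of 0 in 11 says little about these factors.

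For each member that spanned at least 2 log2 units over the 6 arrays, the genes with the nearest pattern were taken by Euclidean distance between centred log2 values, over 18371 other genes. Meg3 and Rian were 0.88 apart, and each was the second nearest gene of the other. The nearest to both was the gene model Gm7819, at 0.80 from Meg3 and 0.78 from Rian, which read 240.0 (young) and 38.3 (aged) in PDGFRa+ cells, 809.4 and 307.6 in satellite cells, and 13.7 and 7.3 in CD31_CD45 cells. Meg3 was also near the transcription factor Msc (0.91), and Rian near the amino acid transporter Slc43a1 (1.05).

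The remaining members had no member among their 3 nearest genes. Peg3 was nearest to Rtn2 (0.56), Sytl2 (0.85) and Bdkrb1 (0.87), Plagl1 to the receptor Egfr (0.29), Itih5 (0.52) and Lrrc17 (0.72), and Ndn to the secreted protein Fstl1 (0.19), Thbs3 (0.28) and Hspb8 (0.42). H19 was nearest to Epb41l3 (0.28), H6pd (0.38) and Clip3 (0.38), and Mest to Mettl27 (0.35), C1qtnf12 (0.36) and Mnd1 (0.39). These distances rest on 6 arrays that share their cell populations. Cdkn1c, Dlk1 and Grb10 spanned 1.95, 0.57 and 0.19 and were not searched.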

How the data were processed

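The files are scanner output for 6 one-colour arrays and 1 table of processed values. Per the file headers, the scanner files hold the median pixel intensity of 27456 spots, merged from 3 gains. The table the authors deposited holds linear intensity with a median of 25 per array, which was found to equal the spot median minus the mean of 2736 blank spots (5% trimmed), rescaled for each array. The genome build of the array design is not given in the sources used here.

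Here, limma's normexp was applied to the spot medians with the blank spots as background and an offset of 50, followed by log2 and quantile normalisation. The platform's annotation, brought up to date through Entrez identifiers, named 20690 of 23473 probes. Genes above background on at least 2 arrays were tested. All 6 arrays entered 1 linear model of population and age, run with limma 3.58.1 in R 4.3.3 (2 residual degrees of freedom), with two-sided tests and Benjamini-Hochberg adjustment over 18372 genes. The procedure was tested on simulated data. Each array holds a pool of cells from an unstated number of mice, so p-values measure only the spread between these arrays.

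The 10 members and the lists were chosen with earlier results of these data known. All members are named, list genes are named from among those called or past 2-fold with age, not all of them, and Mirg, Dio3, Rtl1, Cdkn1a, Cdkn1b and single cell type markers were named after their values were seen. Alternatives were other offsets, backgrounds, scalings, filters and models, the gain set as a block, and leaving out each array.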

Additional observations from a re-analysis of the deposited data

How the results depend on the processing

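Of 630 tested member values under the alternatives, 554 kept their direction and side of the threshold, 48 lost the call, 12 gained it and 16 turned. With an offset of 10 the genes called were 2213 (PDGFRa+ minus satellite), 2945 (PDGFRa+ minus CD31_CD45) and 3382 (satellite minus CD31_CD45), and they were 2981, 3790 and 4429 when the deposited values were used, against 1339, 1857 and 2147 as reported. With the local background of each spot, which followed its spot's own signal (r of logs 0.961 to 0.980 across spots), they were 68, 289 and 342, with 0, 1 and 1 members called. There, 5 members in satellite and 1 in CD31_CD45 cells were at least 2-fold different with age, Cdkn1c stood at -0.19 in PDGFRa+ minus satellite cells, and the age terms of Meg3, Cdkn1c and Plagl1 were 0.0063, 2.17 and 0.35. The cause was not tested. With the deposited table the age term of Dlk1 was 0.045, and 1 member in CD31_CD45 cells was at least 2-fold different. The median of all genes for satellite minus CD31_CD45 cells was 0.11 with that table and with median scaling, against 0.02.

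With the gain set as a block, 835 genes and 3 members were called for PDGFRa+ minus CD31_CD45 cells and 2 members for PDGFRa+ minus satellite cells. Grb10 then stood at -0.079 in PDGFRa+ minus CD31_CD45 cells, and the age terms of Grb10 and Ndn were 0.0091 and -0.16.

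Leaving out 1 array gave 0 to 1312 genes and 0 to 4 members for PDGFRa+ minus satellite cells, and 1131 to 1815 genes for PDGFRa+ minus CD31_CD45 cells. Mest in PDGFRa+ minus satellite cells ranged from -0.41 to 0.22 (0.21 without young PDGFRa+ and 0.22 without young satellite). The age term of Dlk1 ranged from -0.075 to 0.061, the latter when either PDGFRa+ array was left out. Those of Grb10 and Ndn ranged from -0.064 to 0.0091 and from -0.16 to 0.34, with 0.0091 and -0.16 when either satellite array was left out. These use fewer samples. No paired analysis was possible because each population and age has 1 array and its number comes from accession order alone; the fit itself compares the ages within each population. Signal over background limits the dim members Dlk1 and Grb10.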
